A study of Mus musculus with 1753 samples.

Results

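Fibroblasts of cluster 3, an endomysial population of mouse hindlimb muscle, were compared between the soleus and the gastrocnemius. The members were the cells whose labels gave cluster 3 and whose titles named 1 of these muscles, 233 of 1753 cells in the series, with 98 cells from soleus and 135 from gastrocnemius. Cluster 3 held 440 cells in all, and for 207 of these the labels did not separate the muscles. Of the soleus cells, 47 carried the strain label PdgfraGFP - PdgfrbGFP pool and 51 the label PdgfrbGFP. The gastrocnemius gave 116 cells of the pool and 19 of PdgfrbGFP.

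The cells had been sorted from adult male reporter mice, 10 to 20 weeks old and backcrossed to C57BL6/J, which express green fluorescent protein from the Pdgfrb gene's control region or a nuclear form of it from the Pdgfra locus. Cells positive for either receptor or its reporter and negative for the endothelial protein CD31 were taken, and their polyadenylated RNA was read with Smart-seq2, without molecular identifiers. The methods describe 1 instance in which soleus muscles of a mouse of each reporter line were pooled before dissociation. No label names an animal, so the strain label served as the replicate, and whether the pool and PdgfrbGFP share a mouse is not known. In the pool the gastrocnemius cells and the soleus cells lay on separate plates, so that muscle and plate cannot be told apart there. In PdgfrbGFP both muscles shared 1 plate. All p-values below measure only the spread between these libraries, which may be technical.

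Muscle fibroblasts make and remodel the connective tissue that carries force from fibre to tendon. The endomysium is the thin sheath around single fibres, and the perimysium wraps bundles of fibres. Its fibroblasts deposit collagens, basement membrane proteins, and elastic fibres, which consist of an elastin core on a scaffold of microfibrils. The soleus is a postural muscle rich in slow, oxidative fibres, whereas the gastrocnemius of the mouse consists mostly of fast fibres.

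Summing by muscle and strain label gave 4 libraries of 34382835 (gastrocnemius, pool), 20948996 (soleus, pool), 3214440 (gastrocnemius, PdgfrbGFP) and 9287503 (soleus, PdgfrbGFP) counts. Single cells had medians of 286783, 460025, 128574 and 173619 counts, in the same order, and a median of 4200 to 6013 genes. Levels are given as CPM, the count scaled to a fixed total for the summed library, after TMM scaling, unless stated otherwise. The 19 cells of gastrocnemius, PdgfrbGFP are the thinnest library, in which a single cell can hold a large part of the counts of a gene. Genes used as markers of cluster 3 were present in all libraries. Hsd11b1, which activates glucocorticoids, stood at 1032, 989, 957 and 777 CPM, the peptidase Mme at 219.5, 234, 339 and 227 CPM and the receptor tyrosine kinase Ret at 229, 246, 135 and 185 CPM, always in the order gastrocnemius and soleus of the pool, then gastrocnemius and soleus of PdgfrbGFP. In clusters 6 and 8, the endomysial clusters used for comparison below, Mme stood at 6.84, 1.85, 31.2 and 31.2 CPM and Ret at 5.76, 13.6, 14.2 and 36.1 CPM. The sort genes Pdgfra (693, 454, 854 and 839 CPM) and Pdgfrb (385, 255, 939 and 819.8 CPM) were present in every library. Pdgfra, Pdgfrb or both had a count in each of the 233 cells.

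Soleus cells of cluster 3 held more RNA of the elastic fibre genes Mfap4 and Eln, of Pi16, Thbs4, Ccn2 and Ckb in both strain labels, by 2.07-fold to 13.7-fold. Gastrocnemius cells held more RNA of complement C3, of the matrix genes Spon1, Srpx and Svep1, and of Lrrc17, Ggt5 and Hspa1a, by 2.01-fold to 18.9-fold. No gene passed the test of muscle across both strain labels. With the strain label as a block, edgeR's quasi-likelihood test called 0 of 13774 genes (0%) at a Benjamini-Hochberg adjusted p under 0.05, while 497 genes had an unadjusted p under 0.05. DESeq2 on the same sums called 88 genes, 26 higher and 62 lower in soleus. The lowest adjusted p with edgeR was 0.611, for Mfap4, and the next was 0.9999. The muscles were therefore also compared within each strain label, where 1 library of each muscle allows no test. A gene was taken to agree when its ratio of soleus to gastrocnemius, with 1 CPM added to both, was 1 or more in log2 size with the same sign in both labels. In addition, at least 30% of the cells of the higher muscle had to hold 100 or more counts per 500000 in each label, a detection level also used in the study. This is a rule of size and not a test.

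Of 1115 genes that met the detection rule, 7 agreed as higher in soleus (0.628%) and 8 as lower (0.717%). The higher genes described here were Mfap4, Pi16, Eln, Ckb, Ccn2 and Thbs4, and the lower ones Spon1, Srpx, Hspa1a, Lrrc17, C3, Gm26889, Ggt5 and Svep1. Gm26889 is annotated antisense inside Svep1, so the lower genes stand for 7 loci. DESeq2 called 14 of these 15 genes, all but Ckb, beside 88 over all genes. The 15 had been chosen by the ratios of the same libraries, so these calls are no separate support. Another 4 genes passed the same size with opposite signs. Ratios of 1 or more in log2 size were found for 32 of the 1115 genes in the pool and for 136 in PdgfrbGFP, the label with the smaller libraries. Over all 1115 genes the ratios of both labels had the same sign for 658 genes and opposite signs for 457, with a Pearson r of 0.30 and a Spearman rho of 0.21 across genes, which are not independent replicates. At the edge of the rule, Svep1 was just inside with log2 ratios of -1.005 and -1.15. Col8a1 was just outside with 2.20 in the pool and 0.99 in PdgfrbGFP. Without the detection rule the same size was reached by 474 of 13774 genes (3.44%) as higher and 503 (3.65%) as lower, while 859 genes reached it with opposite signs.

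**Figure D1:**
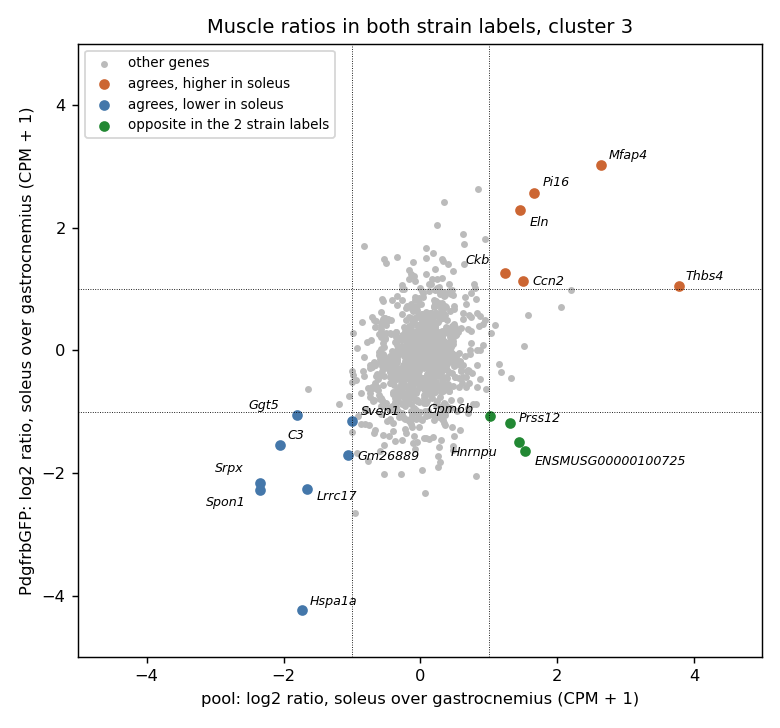
Log2 ratio of soleus to gastrocnemius in the pool (x axis) and in PdgfrbGFP (y axis) for genes that met the detection rule in cluster 3, with 1 CPM added and dotted lines at 1 and -1. The 6 orange and 8 blue genes lie beyond both lines with the same sign, the 4 green genes with opposite signs, and most genes lie between the lines in both labels.

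Mfap4 and Eln, both genes of elastic fibres, were higher in soleus of both labels. Mfap4, which encodes a microfibril-associated glycoprotein of elastic fibres (ENSMUSG00000042436, chr11:61485431-61488900 in GRCm38), was found at 107 CPM in gastrocnemius and 673 in soleus of the pool, and 354 and 2900.3 in PdgfrbGFP. Both soleus libraries were above both gastrocnemius libraries, by 6.26-fold in the pool and 8.16-fold in PdgfrbGFP. Here and for the genes below, lack of overlap largely follows from the rule of choice. The share of all genes without overlap was not counted. The log2 fold change of soleus over gastrocnemius was 2.84 ± 0.24 (SE, n = 2 libraries of each muscle), with an adjusted p of 0.611 by edgeR. Leaving out 1 library moved this value between 1.57 without soleus of PdgfrbGFP and 4.07 without gastrocnemius of PdgfrbGFP. Here and below, fits that leave out a library have no strain term, so their values also hold differences between the strain labels. It was the only gene called once genes under a mean of 50 CPM were left out, with an adjusted p of 0.0269 among 4059 genes, a limit chosen after the data were seen. Over all alternatives its adjusted p ran from 2.1e-19 (DESeq2) to 1. The counts behind these levels were 3886 counts (3765 to 4010.1), 15543 counts (15299.6 to 15789), 994 counts (933 to 1058) and 26205 counts (25889 to 26524), with exact 95% Poisson intervals that cover counting error only. Among single cells, 100 or more counts per 500000 were reached by 10.3% (5.46 to 17.4) of gastrocnemius cells and 46.8% (32.1 to 61.9) of soleus cells of the pool, with exact 95% binomial intervals. In PdgfrbGFP the shares were 15.8% (3.38 to 39.6) and 86.3% (73.7 to 94.3). A single cell held 46.2% of the Mfap4 counts of gastrocnemius, PdgfrbGFP, and 5.48% in soleus of the same label.

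Eln, the gene of tropoelastin, the core protein of elastic fibres (ENSMUSG00000029675, chr5:134702593-134747323), was found at 109 CPM in gastrocnemius and 303 in soleus of the pool, and 157 and 776 in PdgfrbGFP. Its levels did not overlap between the muscles and were 2.75-fold and 4.91-fold higher in soleus, with a log2 fold change of 1.88 ± 0.32, which ran from 1.204 without soleus of PdgfrbGFP to 2.56 without soleus of the pool. Eln was detected in 17.2% (10.9 to 25.4) and 36.2% (22.7 to 51.5) of the cells of the pool, and in 15.8% (3.38 to 39.6) and 64.7% (50.1 to 77.6) of PdgfrbGFP, where 1 gastrocnemius cell held 57.4% of the counts. Of the elastic fibre list, 21 of 22 members were tested, 2 agreed and the median log2 fold change was 0.18, beside 0.03 over all genes tested. Fbn1, the main microfibril protein, stood at 1013, 1438, 2059 and 1529 CPM, and Fbln5, which guides elastin onto microfibrils, at 577, 727, 695 and 1030.4 CPM. Ltbp4 was at 1729, 1935, 1365 and 1583 CPM and Mfap5 at 812, 981, 1378 and 1473 CPM. Without Mfap4 and Eln, the other 20 members summed to 10380.0, 11859.7, 11617 and 12531 CPM without TMM scaling. The crosslinking enzyme Lox was lower in soleus of both labels, at 133, 77.1, 420.1 and 132 CPM (log2 fold change -1.22 ± 0.35).

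Pi16, a secreted peptidase inhibitor found in fibroblasts of the adventitia and in progenitor-like fibroblasts (ENSMUSG00000024011, chr17:29317680-29330593), was found at 351.2 CPM in gastrocnemius and 1109 in soleus of the pool, and 346 and 2050.5 in PdgfrbGFP. The gastrocnemius libraries were nearly alike, and both soleus libraries lay 3.15-fold and 5.91-fold above them (log2 fold change 2.11 ± 0.30). It was detected in 36.2% (27.5 to 45.6) of gastrocnemius and 89.4% (76.9 to 96.5) of soleus cells of the pool, and in 42.1% (20.3 to 66.5) and 86.3% (73.7 to 94.3) of PdgfrbGFP. Of the progenitor list, Pi16 and Thbs4 agreed as higher in soleus, while Cd34 stood at 1829, 1553, 2665 and 3014 CPM and Ly6a, the Sca-1 antigen, at 1108, 865, 1459 and 1221 CPM. The list had 16 of 16 members tested and a median log2 fold change of -0.12. Cd55, which shields cells from complement, was at 141, 218, 63.8 and 241 CPM (log2 fold change 1.27 ± 0.42).

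Thbs4, a thrombospondin of tendon and muscle attachments (ENSMUSG00000021702, chr13:92751590-92794818), showed the largest ratio in the pool and a small one in PdgfrbGFP. It was found at 56.8 CPM in gastrocnemius and 790.1 in soleus of the pool, and 1351 and 2803 in PdgfrbGFP, which is 13.7-fold and 2.07-fold higher in soleus. The soleus library of the pool lay below the gastrocnemius library of PdgfrbGFP, so the muscles overlapped across labels, and the log2 fold change was 2.42 ± 0.70. In the pool it was detected in 5.17% (1.92 to 10.9) of gastrocnemius and 63.8% (48.5 to 77.3) of soleus cells. The shares in PdgfrbGFP were 57.9% (33.5 to 79.7) and 76.5% (62.5 to 87.2), with overlapping intervals. Leaving out a library moved its log2 fold change between 0.19 without soleus of PdgfrbGFP and 4.98 without gastrocnemius of PdgfrbGFP. These fits have no strain term, and the labels differed widely in Thbs4, so the range is not that of the muscle effect alone.

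Ccn2, or connective tissue growth factor, a matricellular protein induced by TGF-beta and by stretch (ENSMUSG00000019997, chr10:24595442-24598683), was found at 102 CPM in gastrocnemius and 289 in soleus of the pool, and 319 and 700.4 in PdgfrbGFP. Soleus was higher by 2.83-fold and 2.19-fold (log2 fold change 1.32 ± 0.26), and the soleus level of the pool lay below the gastrocnemius level of PdgfrbGFP. Without 1 library the value ran from 0.48 (no soleus of PdgfrbGFP) to 2.29 (no gastrocnemius of PdgfrbGFP). An antisense gene overlaps 23.2% of its exonic bases, and whether the counting used strand is not given in the sources used here. Its relative Ccn1 stood at 340.4, 562, 1296 and 1251 CPM and Ccn5 at 205.3, 368, 106 and 667 CPM (log2 fold change 1.74 ± 0.49). Ckb, the brain type creatine kinase, which buffers ATP (ENSMUSG00000001270, chr12:111669361-111672338), was 2.35-fold and 2.41-fold higher in soleus, at 87.4, 207, 187 and 452 CPM (log2 fold change 1.26 ± 0.27). Without the same libraries its value ran from 0.61 to 1.92. Its 4 libraries did not overlap between the muscles, although soleus of the pool lay close to gastrocnemius of PdgfrbGFP.

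The promoter windows of the higher genes are shown for Thbs4 and Ckb, so that the starts of the genes with the largest ratio in the pool and the most alike ratios can be read. RefSeq windows of 250 bases before to 50 after the start (GRCm38.p6) were at hand for 8 of the 14 loci. They were searched on both strands for TATAAA (the TATA box, in 13.6% of 32851 windows), CCAAT (37.4%), the heat shock element GAANNTTC (7.86%) and GGAATG, the core of TEAD sites (14.7%). Matches are in capitals, those on the other strand as the reverse complement, and a match is a description of letters only. In Ckb the GGAATG directly follows a CCAAT.
Thbs4, chr13:92794769-92795068, minus strand: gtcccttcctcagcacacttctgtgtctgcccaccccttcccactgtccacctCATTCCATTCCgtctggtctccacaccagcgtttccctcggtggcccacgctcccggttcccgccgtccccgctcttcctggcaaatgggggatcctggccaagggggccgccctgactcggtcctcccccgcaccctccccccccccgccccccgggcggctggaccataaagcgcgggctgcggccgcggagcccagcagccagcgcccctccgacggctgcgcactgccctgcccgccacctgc
Ckb, chr12:111672289-111672588, minus strand: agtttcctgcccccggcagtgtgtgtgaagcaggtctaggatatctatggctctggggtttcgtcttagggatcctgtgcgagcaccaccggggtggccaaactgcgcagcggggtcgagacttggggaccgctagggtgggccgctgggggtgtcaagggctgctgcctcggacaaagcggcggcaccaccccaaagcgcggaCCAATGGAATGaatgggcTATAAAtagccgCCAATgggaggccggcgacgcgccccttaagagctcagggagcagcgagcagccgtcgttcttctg
The Thbs4 window holds GGAATG on the other strand at 2 places that overlap by 1 base, and the Ckb window holds the TATA box, CCAAT at 2 places and 1 GGAATG. Of the other windows of higher genes, that of Pi16 holds 1 CCAAT.

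C3, the central protein of the complement cascade (ENSMUSG00000024164, chr17:57203970-57228136), was lower in soleus of both labels. It was found at 1585 CPM in gastrocnemius and 382 in soleus of the pool, and 1814 and 624 in PdgfrbGFP, which is 4.15-fold and 2.91-fold higher in gastrocnemius (log2 fold change of soleus over gastrocnemius -1.80 ± 0.24). Both gastrocnemius libraries lay above both soleus libraries. C3 was detected in 72.4% (63.3 to 80.3) of gastrocnemius and 38.3% (24.5 to 53.6) of soleus cells of the pool, and in 78.9% (54.4 to 93.9) and 47.1% (32.9 to 61.5) of PdgfrbGFP. Other complement genes stood closer together. Serping1, the C1 inhibitor, was at 3635, 2856, 6101 and 5374 CPM, C1s1, a protease of the classical pathway, at 899, 721, 1648 and 1082 CPM, and Cfb, the protease of the alternative pathway, at 91.5, 131, 282 and 405 CPM. Clu, an inhibitor of the terminal complex, was lower in soleus at 28.5, 5.28, 76.3 and 14.5 CPM (log2 fold change -2.41 ± 0.72). Of the complement list 14 of 18 members were tested, 1 agreed, and the median log2 fold change was -0.26.

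Spon1, or F-spondin, a matrix protein with thrombospondin repeats (ENSMUSG00000038156, chr7:113765998-114043370), had almost the same levels in both labels. It was found at 471 CPM in gastrocnemius and 92.3 in soleus of the pool, and 447 and 91.9 in PdgfrbGFP, 5.06-fold and 4.83-fold higher in gastrocnemius (log2 fold change -2.32 ± 0.27), and leaving out any library kept it between -2.35 and -2.25. It was detected in 53.4% (44 to 62.8) and 19.1% (9.15 to 33.3) of the cells of the pool and in 36.8% (16.3 to 61.6) and 11.8% (4.44 to 23.9) of PdgfrbGFP. Srpx, a secreted protein with sushi repeats (ENSMUSG00000090084, chrX:10037977-10117709), was found at 322 CPM in gastrocnemius and 62.6 in soleus of the pool, and 642 and 143 in PdgfrbGFP. It was 5.08-fold and 4.47-fold higher in gastrocnemius (log2 fold change -2.27 ± 0.27), with no overlap between the muscles. Its detection was 45.7% (36.4 to 55.2) and 14.9% (6.2 to 28.3) in the pool, and 57.9% (33.5 to 79.7) and 19.6% (9.82 to 33.1) in PdgfrbGFP.

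Svep1, a large secreted protein with sushi, EGF-like and pentraxin domains (ENSMUSG00000028369, chr4:58042442-58206859), was widely detected in both muscles. It was found at 1275 CPM in gastrocnemius and 635 in soleus of the pool, and 1808 and 815 in PdgfrbGFP, 2.01-fold and 2.22-fold higher in gastrocnemius (log2 fold change -1.08 ± 0.21). Between 74.5% and 91.4% of the cells of a library reached the detection level. Gm26889 (ENSMUSG00000097249, chr4:58178247-58206635) shares 99.6% of its exonic bases with Svep1 on the opposite strand, and without strand their reads cannot be told apart. Its levels were 411, 197, 479 and 147 CPM (log2 fold change -1.38 ± 0.29). Lrrc17, a secreted leucine-rich repeat protein (ENSMUSG00000039883, chr5:21543559-21575904), was found at 173 CPM in gastrocnemius and 54.2 in soleus of the pool, and 383 and 79.1 in PdgfrbGFP, 3.15-fold and 4.79-fold higher in gastrocnemius (log2 fold change -1.97 ± 0.33). Ggt5, which cleaves leukotriene C4 and glutathione conjugates (ENSMUSG00000006344, chr10:75589340-75617200), was 3.48-fold and 2.07-fold higher in gastrocnemius, at 312, 89.2, 333 and 160.1 CPM (log2 fold change -1.43 ± 0.32). In the gastrocnemius of PdgfrbGFP 1 cell held 48% of its counts, and the detection shares of that label, 31.6% (12.6 to 56.6) and 27.5% (15.9 to 41.7), overlapped.

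Hspa1a, the inducible heat shock protein of the Hsp70 family (ENSMUSG00000091971, chr17:34969190-34972156), showed the largest difference of the lower genes in PdgfrbGFP. It was found at 325 CPM in gastrocnemius and 97.7 in soleus of the pool, and 939 and 48.7 in PdgfrbGFP, 3.3-fold and 18.9-fold higher in gastrocnemius (log2 fold change -2.99 ± 0.68). It was detected in 40.5% (31.5 to 50.03) and 19.1% (9.15 to 33.3) of the cells of the pool and in 68.4% (43.4 to 87.4) and 7.84% (2.18 to 18.9) of PdgfrbGFP. The value is uncertain, since its near-identical copy Hspa1b, at 16.9, 8.23, 8.56 and 1.11 CPM, can share its reads and an antisense gene overlaps 19.01% of its exonic bases. Of the other stress genes, Hspa8, the constitutive family member, stood at 313, 353, 547 and 424 CPM, the co-chaperone Dnajb1 at 124, 105, 299.9 and 164 CPM and Hsp90aa1 at 165, 164, 218 and 108 CPM. Dnajb1 and Hspa1b were thus also lower in soleus of both labels. Hspa8 was lower in PdgfrbGFP alone, and Hsp90aa1 was lower there and nearly equal in the pool. The median log2 ratio of the 9 genes of the heat shock list was -0.01 in the pool and -0.71 in PdgfrbGFP, and the 8 without Hspa1a summed to 965, 1072, 1174 and 967 CPM without TMM scaling. Of the immediate early genes, which respond to tissue handling as well as to signals, Fos was at 1785, 1659.9, 3841 and 2328 CPM and Egr1 at 2479, 1981, 4576 and 2592 CPM. The median log2 fold change of their list was -0.37 over 23 of 23 members. The part of handling in the Hspa1a difference was not tested.

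The windows of Hspa1a and C3, the lower genes with the largest ratio in PdgfrbGFP and with a role in complement, are shown with the same letters in capitals.
Hspa1a, chr17:34972107-34972406, minus strand: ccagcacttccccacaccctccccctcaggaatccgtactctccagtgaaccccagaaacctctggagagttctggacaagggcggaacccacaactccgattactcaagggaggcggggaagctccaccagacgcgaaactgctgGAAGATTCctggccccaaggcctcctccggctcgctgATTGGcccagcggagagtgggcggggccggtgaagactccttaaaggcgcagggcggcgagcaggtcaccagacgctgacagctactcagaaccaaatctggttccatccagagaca
C3, chr17:57228087-57228386, minus strand: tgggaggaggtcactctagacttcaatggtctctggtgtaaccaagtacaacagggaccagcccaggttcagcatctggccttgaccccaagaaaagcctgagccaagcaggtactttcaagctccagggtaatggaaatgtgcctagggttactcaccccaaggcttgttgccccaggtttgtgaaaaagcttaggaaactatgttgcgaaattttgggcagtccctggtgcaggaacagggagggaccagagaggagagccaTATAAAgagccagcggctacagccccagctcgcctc
The Hspa1a window holds 1 GAANNTTC and 1 CCAAT on the other strand, and the C3 window holds 1 TATAAA, which lies after the annotated start. Among the other lower genes, Svep1 holds TATAAA and GGAATG, Lrrc17 holds TATAAA and CCAAT, and the window of Srpx holds none of these letters.

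**Figure D2:**
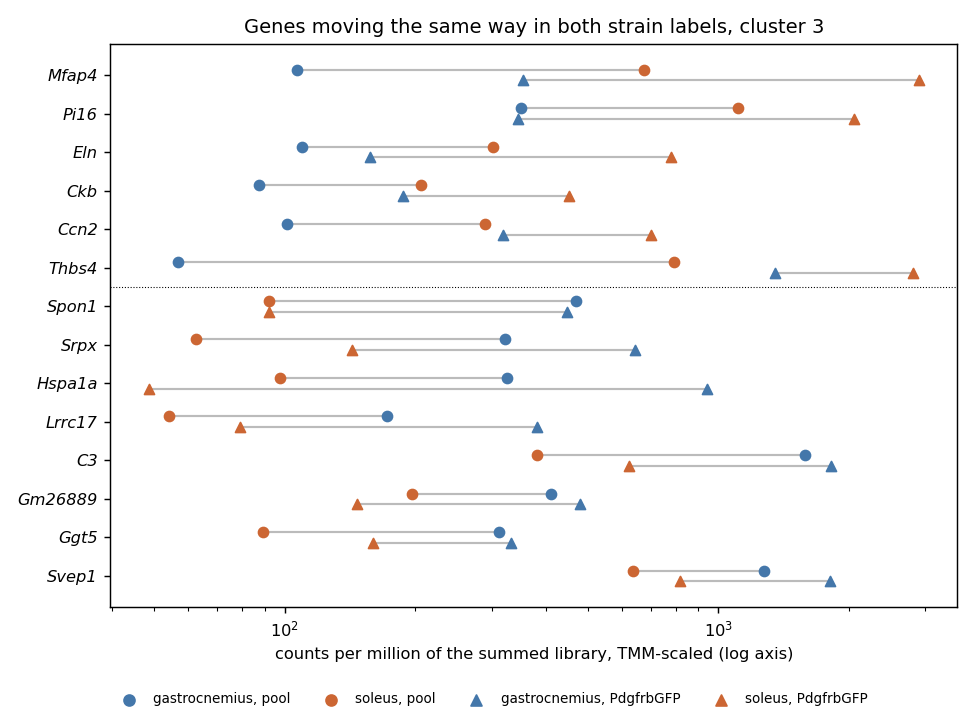
Levels of 14 agreeing genes in the 4 summed libraries (x axis, TMM-scaled CPM on a log axis; circles, pool; triangles, PdgfrbGFP; blue, gastrocnemius; orange, soleus; grey lines join the muscles of a label). Soleus lies to the right above the dotted line and to the left below it, and the muscles overlap across labels only for Thbs4 and Ccn2. The genes were chosen by their ratios in these libraries, and the share of all genes without overlap was not counted.

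**Figure D3:**
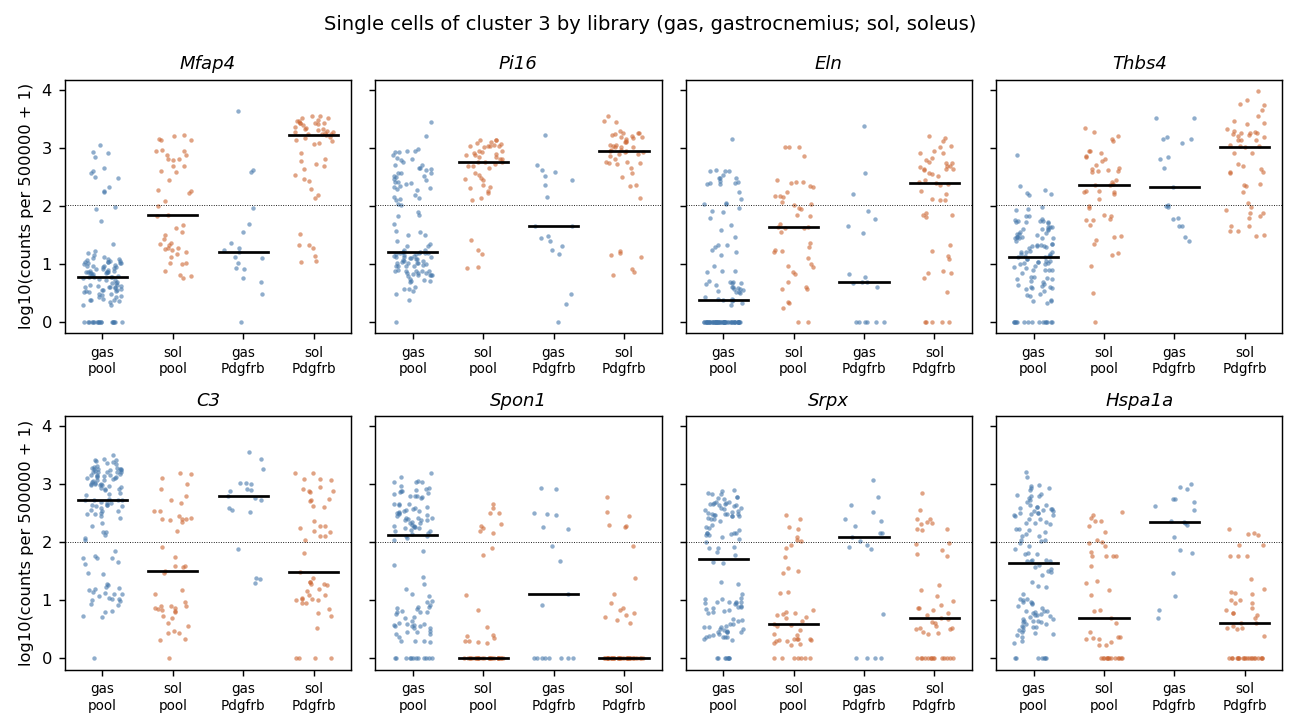
Counts per 500000 in single cells of cluster 3 for 8 agreeing genes (y axis, log10 with 1 added; x axis, library; black bars, medians; dotted line, the detection level of 100). For Mfap4 and Eln a larger share of soleus cells lies above the line in both labels, and for Thbs4 the contrast is wide in the pool only. For C3, Spon1, Srpx and Hspa1a a larger share of gastrocnemius cells lies above it. Numbers of cells differ between libraries.

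The genes were also tallied cell by cell, as a description that follows from their choice. Of the 6 genes higher in soleus that are described here, a gastrocnemius cell reached the detection level for a median of 1 in the pool and 2 in PdgfrbGFP, and a soleus cell for 3 and 5. At least 4 of them were detected together in 5 of 116 gastrocnemius cells (4.31%) and 17 of 47 soleus cells (36.2%) of the pool. In PdgfrbGFP this was 2 of 19 (10.5%) and 37 of 51 (72.5%). Of the 7 lower genes, with Gm26889 left out, the medians were 4 in both gastrocnemius libraries and 2 in both soleus libraries. At least 4 were detected in 68 of 116 and 11 of 19 gastrocnemius cells, and in 5 of 47 and 8 of 51 soleus cells. Single cells of each muscle fell in the range of the other. Within a library the median Spearman rho lay between 0.07 and 0.26 over the 15 pairs of these higher genes. Over 27 pairs of the lower genes it lay between 0.05 and 0.32, with single pairs from -0.39 to 0.71 in gastrocnemius of PdgfrbGFP, where cells share a plate and differ in depth. After each cell had been thinned to 50000 counts, the detection shares at 10 counts kept their direction in both labels for all 15 genes, and 0 cells had to be left out. The mean log2 level over cells kept it for all 15 as well. Both checks use the cells by which the genes were chosen, so they are not independent of that choice.

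**Figure D4:**
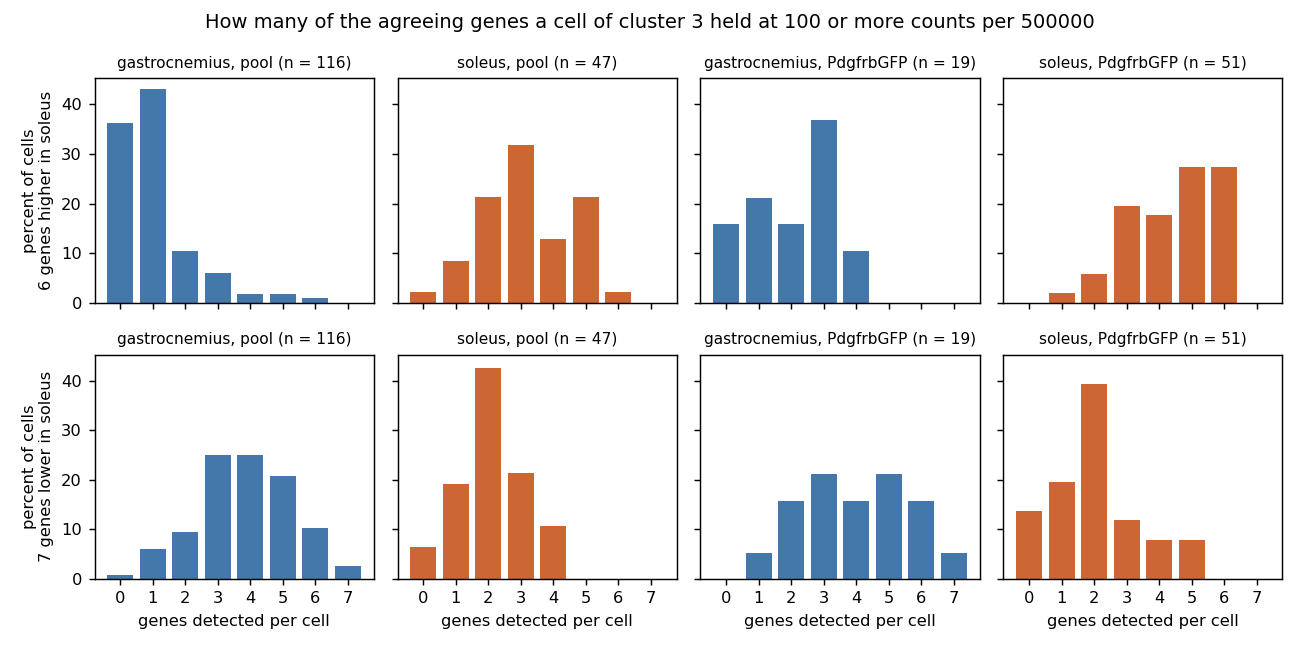
Number of agreeing genes that a cell of cluster 3 held at 100 or more counts per 500000 (x axis) against the percent of cells of its library (y axis), for 6 genes higher in soleus (top) and the 7 lower ones without Gm26889 (bottom). The soleus libraries lie to the right at the top and to the left at the bottom in both labels, with overlap between the muscles.

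Gene groups of the connective tissue were read next, from 37 lists with 603 genes, of which 462 were tested. None of them had a member called by edgeR, while 64 members (13.9%) had an unadjusted p under 0.05, beside 3.61% of all genes tested. In the edgeR fit of 4059 genes with a mean of 50 CPM or more, 237 had one. The lists were chosen with earlier results of these data known, so these shares are not compared as a test. DESeq2 called 19 members, 10 higher and 9 lower in soleus, beside 88 over all genes. List members given here or above with a log2 fold change, other than the 15 agreeing genes, were chosen after their values were seen. Fibrillar collagens were of like level or lower in soleus, and the contrast lay in PdgfrbGFP. Col1a1 stood at 3417, 3557, 7183 and 2659 CPM and Col3a1 at 4955, 4827, 8703 and 4239.6 CPM, and the list had a median log2 fold change of -0.68 over 7 of 11 members. Basement membrane genes had a median of -0.61 over 18 of 22. Among them Hspg2, the proteoglycan perlecan, was at 1589.5, 1233, 2356 and 846 CPM, Nid2, which links laminin to collagen IV, at 547, 361, 859 and 273 CPM, Col18a1 at 158, 81.2, 339.9 and 53 CPM and Col4a4 at 78.2, 41.9, 341 and 82.7 CPM. Their log2 fold changes were -0.92 ± 0.32, -1.12 ± 0.33, -1.81 ± 0.51 and -1.47 ± 0.41. Lama2 and Lamb2, chains of the laminin of muscle, stood at 1144, 1009, 650.5 and 658 CPM and 723, 773, 372 and 416 CPM. Col6a6, a chain of collagen VI, was at 188, 66.3, 189 and 93.1 CPM (log2 fold change -1.27 ± 0.34), whereas Col8a1 was higher in soleus at 106, 492, 509 and 1012 CPM (log2 fold change 1.60 ± 0.36).

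The small leucine-rich proteoglycans, which bind collagen fibrils, split. Aspn was at 136, 569.7, 428 and 703 CPM and Bgn at 1569, 2579, 5153 and 7675 CPM, with log2 fold changes of 1.39 ± 0.39 and 0.65 ± 0.18, while Fmod was at 85.8, 36.5, 315 and 159.7 CPM (-1.11 ± 0.31) and Dcn at 6446, 4653, 10217 and 9153 CPM. The median of the list was -0.06 over 13 of 15 members. Of the proteases and their inhibitors, 25 of 29 were tested, with a median of -0.43. Mmp3, or stromelysin, which cleaves proteoglycans and activates other proteases, stood at 28.3, 0.217, 76.7 and 3.76 CPM (log2 fold change -5.57 ± 1.16). It had only 5 counts in soleus of the pool and 34 in soleus of PdgfrbGFP, and did not meet the detection rule. Adam33 stood at 156, 44.4, 94.9 and 15.1 CPM (-2.23 ± 0.46) and Mmp19 at 96.1, 34.8, 147 and 54.7 CPM (-1.45 ± 0.39). The inhibitor Timp1 was higher in soleus at 7.28, 51.8, 11.1 and 38.3 CPM (2.32 ± 0.82), and the gelatinase Mmp2 was at 3285, 2662, 4203 and 3162 CPM.

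WNT ligands and modulators summed, without TMM scaling, to 639, 193, 575 and 271 CPM, lower in soleus in both labels. Their median log2 fold change was -0.42 over 15 of 24 members, none of which met the detection rule. The median log2 ratio was -1.11 in the pool and -0.18 in PdgfrbGFP. The sum includes Dkk2, with 7612 and 1 counts in gastrocnemius and soleus of the pool, and 233 and 255 in PdgfrbGFP. Sfrp4, a secreted inhibitor of WNT, stood at 87.1, 38.1, 353 and 97.2 CPM (-1.53 ± 0.35) and the ligand Wnt5a at 149.6, 24.2, 95.2 and 58 CPM (-1.68 ± 0.61). Fst, or follistatin, which blocks activin and myostatin, was found at 127, 22.5, 127 and 24.6 CPM (-2.44 ± 0.42). Igfbp3, a carrier of insulin-like growth factors, was at 43, 2.42, 84.9 and 12.9 CPM (-3.42 ± 0.78), and Igf1 itself at 291, 409, 263 and 419 CPM. The list of TGF-beta and BMP genes had a median of -0.01 and the list of IGF genes had -0.22. Of the prostanoid enzymes, Ptgis, the prostacyclin synthase, was at 53.7, 21.9, 113 and 13.6 CPM (-2.16 ± 0.68), and Hpgd, which degrades prostaglandins, at 14.1, 4.42, 149 and 37.2 CPM (-1.84 ± 0.52). Of the chemokines, Cxcl14 stood at 1915, 1327, 854 and 2402 CPM, with opposite directions in the labels, and Ccl11 at 1391, 1108, 1323 and 824 CPM, lower in soleus of both. The median log2 ratio of the chemokine and cytokine list was -0.28 in the pool and -0.79 in PdgfrbGFP.

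Genes of limb position, such as HOX, TBX and MEIS factors, were read because the muscles differ in place. Of this list 39 of 65 members were tested, with a median log2 fold change of 0.13. Only 4 members met the detection rule, and Meis2, Hoxa11 and Prrx2 did not. Meis2, a partner of HOX factors, stood at 22.7, 0.52, 61.7 and 1.44 CPM (log2 fold change -5.42 ± 1.02), and Hoxa11, which patterns the distal limb, at 21.1, 4.03, 37.8 and 2.32 CPM (-3.19 ± 1.14). Meis2 had only 12 counts in soleus of the pool and 13 in soleus of PdgfrbGFP, so the size of its difference is uncertain. Osr2 was at 74.2, 140.1, 12.1 and 129.9 CPM (2.11 ± 0.72) and Prrx2 at 36.3, 92.6, 11.4 and 47.3 CPM (1.69 ± 0.57), both higher in soleus.  Prrx1, a factor of limb mesenchyme, was at 184, 119, 216 and 137 CPM, and Tcf4 at 411, 412, 269 and 364 CPM. The early response gene Egr2 stood at 5.55, 35.6, 0.713 and 64.3 CPM (4.25 ± 1.29). It had only 2 counts in gastrocnemius of PdgfrbGFP and did not meet the detection rule.

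Markers of other cells were checked in the same libraries, as sums of CPM without TMM scaling in the order given above. Slow fibre genes summed to 2.27, 28.7, 1.56 and 13.6 CPM and fast fibre genes to 142, 49.7, 53.5 and 43.7 CPM, so traces of slow fibre RNA were higher in soleus of both labels. The sum of the fast fibre genes was higher in gastrocnemius of both labels, but the median log2 ratio of its tested members was -1.18 in the pool and 0.90 in PdgfrbGFP. Their part in any result was not tested. Immune markers summed to 7.88, 8.5, 4.36 and 5.92 CPM, endothelial markers to 23.9, 12.7, 23.6 and 22.6 CPM, mural markers to 34.6, 49.8, 132 and 100.996 CPM and Schwann cell markers to 34.3, 7.78, 13.4 and 29.8 CPM. The satellite cell markers summed to 171, 87, 181 and 89.5 CPM, nearly all from Des and Vcam1, while Pax7 had a count of 0 in all 4 libraries, as had Sox10 of the Schwann cell list. Perimysial markers summed to 227, 1006, 1538 and 3235 CPM and paramysial markers to 247, 1471, 1241 and 4154 CPM, higher in soleus of both labels. These lists hold Thbs4 and Mfap4, and the paramysial list also holds Col8a1, at 106, 492, 509 and 1012 CPM with TMM scaling. The median log2 ratio of the tested paramysial markers was 2.20 in the pool and -0.53 in PdgfrbGFP. For the tested perimysial markers it was -0.18 and 0.28. Without Thbs4 the other 13 perimysial markers summed to 167, 135, 359 and 508 CPM, and without Mfap4 the other 6 paramysial markers to 134, 729, 931 and 1333 CPM, with Postn at 13.1, 142, 466 and 313 CPM and Tnmd, a defining tendon gene, at 11.4, 6.54, 11.8 and 8.96 CPM. The part of cells near these classes in the Mfap4, Thbs4, Ccn2 and Ckb differences was not tested. Fibroblast markers such as Lum (1669, 2036, 3967 and 3193 CPM) were high throughout, and the mitochondrially encoded genes summed to 7451, 7280.1, 6617 and 7367 CPM.

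To see whether the differences were shared by neighbouring fibroblasts, the same muscles and labels were compared in clusters 6 and 8, with 43, 40, 70 and 39 cells. There edgeR called 0 of 13922 genes, with 720 at an unadjusted p under 0.05, and DESeq2 called 110. Of the 15 agreeing genes 12 had the same direction in both labels there. The share of all genes that kept direction was not counted. These cells lay on the same plates as those of cluster 3, so plate and muscle cannot be told apart in the pool here either. Hspa1a was lower in soleus by a like amount, at 297, 69.3, 647 and 31.2 CPM and a log2 fold change of -3.22 ± 0.57. Ggt5 (-1.47 ± 0.40) and Svep1 (-0.79 ± 0.20) stood beside -1.43 ± 0.32 and -1.08 ± 0.21 in cluster 3. Thbs4 had 1.71 ± 0.34, with log2 ratios of 1.19 in the pool and 2.20 in PdgfrbGFP, beside 3.77 and 1.05 in cluster 3. C3 was at 998, 542, 2580.0 and 2039 CPM (-0.61 ± 0.22), Spon1 at 164, 93.8, 275 and 189.6 CPM (-0.67 ± 0.27) and Srpx at 542, 439, 1005 and 427 CPM (-0.77 ± 0.28), all smaller in size than in cluster 3.

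Eln had the opposite direction in clusters 6 and 8. It was found there at 369, 216, 683.3 and 272 CPM, lower in soleus of both labels, with a log2 fold change of -1.05 ± 0.25. The difference of the muscle effect, cluster 3 minus clusters 6 and 8, was 2.96 ± 0.42. Mfap4 was higher in soleus in both sets but by less in clusters 6 and 8, at 238, 412, 645 and 1361 CPM (0.93 ± 0.22), with a difference of 1.94 ± 0.26. Pi16 stood there at 314, 379, 527 and 557 CPM (0.18 ± 0.22, difference 1.96 ± 0.34) and Ccn2 at 137, 134, 261 and 239 CPM (-0.08 ± 0.26, difference 1.43 ± 0.38). None of these differences passed. The interaction called 0 of 15175 genes with edgeR, with 475 at an unadjusted p under 0.05, and the adjusted p of each of these genes was 1. DESeq2 called 61 genes for the difference, among them Eln, Mfap4 and Pi16, with adjusted p-values of 1.8e-07, 2.8e-05 and 0.00024, but not Ccn2 (0.152). Nothing is therefore called particular to cluster 3.

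**Figure D5:**
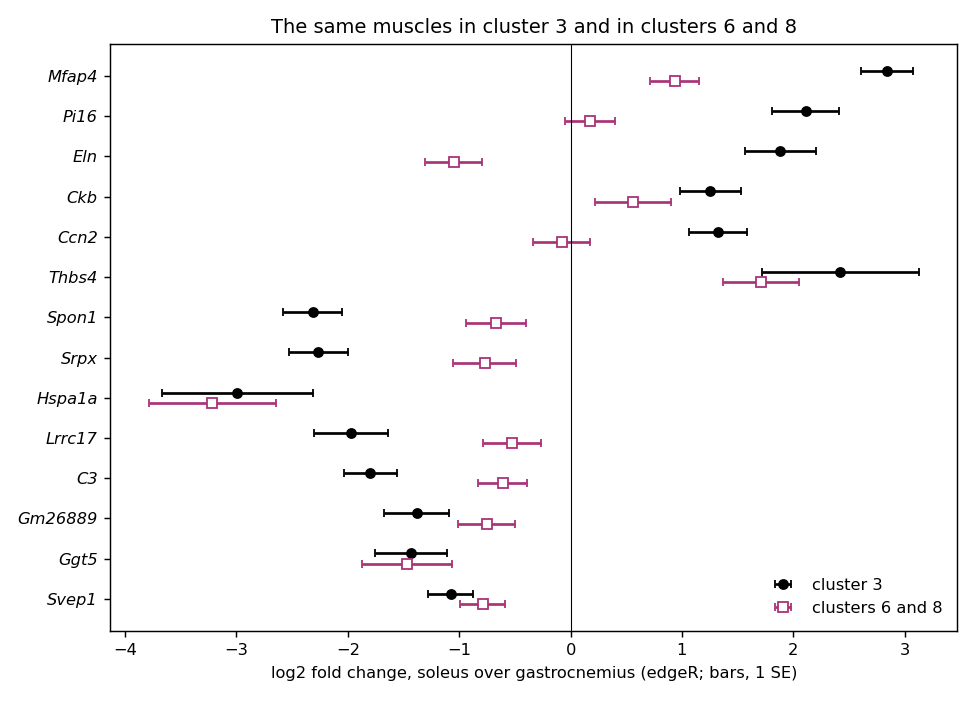
Log2 fold change of soleus over gastrocnemius (x axis, edgeR, bars of 1 SE) for 14 agreeing genes in cluster 3 (black circles) and in clusters 6 and 8 of the same muscles and labels (open squares). Eln lies on opposite sides of 0, at 1.88 and -1.05, while Hspa1a and Ggt5 lie close together.

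Perimysial cells (clusters 2 and 9) of the same 4 libraries, with 20, 16, 19 and 16 cells, give levels only, as CPM without TMM scaling. Hspa1a stood there at 316, 49.4, 601 and 8.63 CPM and C3 at 799.6, 128, 966 and 13.9 CPM, lower in soleus of both labels. Thbs4, which marks these cells, was at 7011, 6218, 15473 and 13366 CPM. Mfap4 was at 1789, 1464, 2509.6 and 3126 CPM and Eln at 8.57, 18.9, 32.2 and 6.75 CPM. Ccn2, which the paper also names among genes of perimysial cells, was at 1435, 1270, 847 and 1050 CPM. Ckb was at 241, 644, 406 and 721 CPM and Pi16 at 13.8, 267, 83.9 and 332 CPM.

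For scale, cluster 3 cells of 3 plates whose labels do not separate the muscles were read in the same way, with 56, 109 and 39 cells of C57BL6, PdgfrbGFP and Acta2GFP. Mfap4 stood at 352, 473 and 742 CPM, Eln at 289.8, 149 and 373 CPM and Pi16 at 133, 678 and 1455 CPM. Thbs4 was at 541, 319 and 1655 CPM, C3 at 1083, 831 and 246 CPM, Spon1 at 120.4, 216 and 76.7 CPM, Srpx at 274, 209.8 and 59.5 CPM and Hspa1a at 622, 1077 and 226 CPM. Genes of both directions thus differed between these plates in cells of 1 cluster, Pi16 the most of those given here, and the part of plate and strain in the muscle ratios of the pool was not tested.

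The share of cells that fell in cluster 3 also differed between the muscles, in opposite directions. In the pool it was 116 of 231 gastrocnemius cells, 50.2% (43.6 to 56.8, exact 95% binomial interval), and 47 of 181 soleus cells, 26.0% (19.7 to 33.0). In PdgfrbGFP it was 19 of 148, 12.8% (7.91 to 19.3), and 51 of 115, 44.3% (35.1 to 53.9). The intervals cover counting error only. The clusters had been made by the authors from these same counts, so a cell whose genes differed by muscle could have been placed elsewhere, and the genes compared here were also used for that grouping.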

How the data were processed

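Single fibroblasts were sequenced with Smart-seq2, and the authors deposited raw read counts per gene and cell in 1 table. Per their methods, reads were demultiplexed with bcl2fastq, trimmed, aligned to GRCm38 (mm10) with TopHat2 and Bowtie and counted with featureCounts, after a samtools step that the methods describe as removal of doublets. Strand use and the annotation release are not given in the sources used here. The authors removed cells with few counts or genes, likely doublets, and endothelial and immune cells, and assigned the clusters, and no doublet caller was run here. In the table, 1 column matched no label and was not used.

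Counts of the 233 cells were summed per muscle and strain label into 4 libraries and tested with edgeR 4.0.16 (R 4.3.3), with TMM scaling, filterByExpr, the quasi-likelihood test with the strain label as a block, and Benjamini-Hochberg adjustment. DESeq2 1.42.0 was an alternative. The scripts were tested on simulated data. Within a strain label no test was possible, and ratios used TMM-scaled CPM with 1 added. Single-cell levels were scaled to 500000 counts. Intervals are exact (Clopper-Pearson or Poisson) at 95%. Reads carry no molecular identifiers, so intervals cover counting error only.

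Same-numbered replicates do not exist in the labels, and pairing by strain label rests on the labels alone. Named genes were those called and those agreeing in both labels (up to 15 in each direction), with the sort genes and cluster markers. From each list came the members that agree and up to 4 further members by mean CPM. Some list members outside this rule were named after their values were seen, such as those given with a log2 fold change. The members and lists were chosen with earlier results of these data known. Of the 7 genes that agreed as higher in soleus, 1 is counted but not reported here.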

Additional observations from a re-analysis of the deposited data

Results flagged for a closer look

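The share of cells that fell in cluster 3 moved in opposite directions in the 2 strain labels. Soleus minus gastrocnemius was 31.5 percentage points in PdgfrbGFP and -24.2 in the pool, and this difference between labels was not tested, since each label holds 1 library of each muscle.

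Another 4 genes met the detection rule and passed the ratio of 1 in log2 size with opposite signs. The gene ENSMUSG00000100725 had a log2 ratio of soleus to gastrocnemius of 1.53 in the pool and -1.64 in PdgfrbGFP. Hnrnpu, which encodes a nuclear RNA-binding protein, had 1.44 and -1.49. Prss12, which encodes a secreted serine protease, had 1.31 and -1.19, and Gpm6b, a membrane proteolipid gene, had 1.02 and -1.08. The differences between labels were not tested.

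Eln was higher in soleus in cluster 3 and lower in soleus in clusters 6 and 8 in both labels, and the difference of the muscle effect was 2.96 on the log2 scale (adjusted p of 1 with edgeR and 1.8e-07 with DESeq2). Ccn2 was higher in soleus in cluster 3 and nearly equal between the muscles in clusters 6 and 8 (log2 fold change -0.08 ± 0.26). Its difference of the muscle effect was 1.43 (adjusted p of 1 with edgeR and 0.152 with DESeq2).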

How the results depend on the processing

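The number of genes called in cluster 3 was 0 with edgeR, 88 with DESeq2, of which 22 had a library at 0 counts, 16 with no filter on low counts, and 1 among genes with a mean of 50 CPM or more, a limit chosen after the data were seen. Leaving out 1 library gave 0 to 12 calls, with 10 without soleus of the pool, 12 without soleus of PdgfrbGFP and 0 without either gastrocnemius library. These fits have no strain term, and a lone library is assumed to vary like the pair. Without the replicate block 0 genes were called. Deviations of the libraries of 1 strain label correlated at 0.118, with only 2 pairs. DESeq2 called 110 genes in clusters 6 and 8 and 61 for the difference from cluster 3.

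The agreeing genes depended on the rule. As higher in soleus, 22 genes agreed at a log2 ratio of 0.6, 1 at 2, 18 with detection at 20 counts, 474 with no detection rule and 17 with equal numbers of cells. As lower, the counts were 34, 2, 21 and 503 for the first 4 settings, and 5 for CPM without TMM, which lost Gm26889, Ggt5 and Svep1. That scaling shifted the median of all genes by 0.06 in the pool and 0.15 in PdgfrbGFP. Equal numbers of cells lost Ccn2, C3, Ggt5 and Svep1, and weighting cells alike lost Thbs4, Gm26889, Ggt5 and Svep1.

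The log2 fold changes of the 15 agreeing genes kept their direction in 165 of 165 alternative values. These genes had been chosen by the sign and size of their ratios in the same libraries, so kept direction largely follows from that choice. The values of 29 list members, chosen after they were seen, kept it in 306 of 309. The exceptions came from leaving out 1 library, in fits without a strain term. Bgn ran from -0.36 to 1.71, Fmod from -2.43 to 0.19 and Hpgd from -4.18 to 0.56. Within each strain label Bgn was higher in soleus, and Fmod and Hpgd were lower, so the reversals do not appear in the ratios within labels. Keeping only cells with a count of Pdgfra or Pdgfrb changed nothing, since all 233 cells have one. Depth is lowest in gastrocnemius, PdgfrbGFP, with 19 cells. Leaving out 1 library moved Srpx between -2.92 and -1.65 and Lrrc17 between -2.49 and -1.37. For the reversals and the differing counts, the cause was not tested.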
